A study of Mus musculus with 6 samples.

Results

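Lower glycolysis is the run of enzymes that takes fructose bisphosphate to phosphoenolpyruvate, and 9 genes that encode its isoenzymes were followed here: Aldoa, Aldoc, Tpi1, Gapdh, Pgk1, Pgam1, Eno1, Eno2 and Eno3. They were chosen by symbol from a table of 22183 genes, with the row of highest summed counts kept where a symbol had several rows. Transcripts were measured by RNA sequencing of cells sorted from the peritoneum of wild-type mice, 3 given saline and 3 given PD fluid, each for 6 weeks. The mice were young adult C57BL/6J males, the cells came from the mesentery, and the PD fluid was a high-glucose Dianeal solution injected daily into the peritoneal cavity. Both groups carried the same genotype, so the fluid is the labelled difference between them. The comparison asks how far the transcripts of these enzymes moved in cells labelled as peritoneal endothelial cells (ECs) after 6 weeks of PD fluid.

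Aldolase splits fructose bisphosphate into a pair of triose phosphates, and triosephosphate isomerase (Tpi1) interconverts them. Glyceraldehyde-phosphate dehydrogenase (Gapdh) then makes NADH, phosphoglycerate kinase (Pgk1) makes ATP, phosphoglycerate mutase (Pgam1) moves the phosphate, and enolase removes water to give phosphoenolpyruvate. ECs are known to draw much of their ATP from glycolysis. Aldolase and enolase exist as isoenzymes with tissue preferences: Aldoa is the muscle and general form and Aldoc the brain form, while Eno1 is the general, Eno2 the neuronal and Eno3 the muscle enolase.

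The enolases are shown first, because the results turn on how these isoenzymes differ. The first 60 coding bases of each (GENCODE M21 transcripts, first base of the start codon to base 60) are printed with capitals at the 23 positions where the 3 genes are not all alike.
Eno1: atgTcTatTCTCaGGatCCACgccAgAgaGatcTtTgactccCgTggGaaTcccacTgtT
Eno2: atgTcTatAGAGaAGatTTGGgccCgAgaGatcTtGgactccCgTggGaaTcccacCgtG
Eno3: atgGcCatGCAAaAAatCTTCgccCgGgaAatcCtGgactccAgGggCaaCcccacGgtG
Over the whole coding sequence of 1305 bases, Eno1 was 75.3% identical to Eno2 and 76.9% identical to Eno3, and Eno2 was 77.5% identical to Eno3. No run of identical bases among these pairs exceeded 23 bases. Aldoa and Aldoc were 76.2% identical, with a longest identical run of 26 bases. The exception was Eno1b, a retrotransposed copy of Eno1, which was 99.4% identical to it over the coding sequence.

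Between 21973426 and 26374292 reads per library were counted on genes. Replicates of a group differed by more than sampling noise in all 6 within-group pairs. The EC label was checked against marker genes. In the saline libraries 12 endothelial markers summed to between 682 and 719 CPM (counts per 1000000 counted reads, after TMM scaling), against 12448 to 13171 CPM for 8 general leukocyte markers. In the PD libraries these sums were 1363 to 1464 CPM and 9300 to 9681 CPM. The sorted cells therefore held abundant leukocyte RNA, although the supplementary methods describe a CD31+ CD45- gate. The sample labels describe magnetic CD31+ selection. Ptprc, which encodes CD45, was at 2373 CPM in the saline group. All 12 endothelial markers had an adjusted p under 0.05 with higher values in PD libraries, Cdh5 (VE-cadherin) going from 18.9 to 33.3 CPM and Kdr (VEGF receptor) from 82.9 to 164 CPM. All 10 macrophage markers were called higher and all 8 B cell markers lower. The 8 mesothelial markers were all called higher, summing to between 15.1 and 19.1 CPM in saline and between 161 and 188 CPM in PD libraries. Of 7 tested neutrophil markers, 6 were called higher and 0 lower. The neutrophil list summed to between 17.6 and 20.7 CPM in saline and between 222 and 239 CPM in PD libraries. In such bulk libraries, fewer cells of a type and less RNA per cell cannot be told apart, and what these shifts contribute to the values below was not tested.

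Together the 9 genes held 0.283%, 0.287% and 0.285% of all counts in the saline libraries and 0.275%, 0.275% and 0.271% in the PD libraries, lower in each PD library by a small amount. Their summed level ran from 2831 to 2909 CPM in the saline libraries and from 2668 to 2779 CPM in the PD libraries. With PD fluid and TMM scaling, 3 of the 9 had an adjusted p under 0.05 and higher values (Pgam1, Eno2 and Eno3). On that scale 2 had lower values (Aldoc and Pgk1) and 4 were not called (Aldoa, Tpi1, Gapdh and Eno1). Scaled to endothelial markers, 8 of the 9 were called lower, as were 10156 of the 14005 genes tested, as described further on. With TMM scaling 58.4% of the 14005 were called, 30.5% higher and 27.9% lower, so being called does not set these genes apart. The median of their log2 fold changes was 0.06, beside 0.02 over all genes tested. The median absolute change was 0.24 on the log2 scale among the 9 and 0.40 over all genes tested, and 6 of the 9 lay at or under the latter. The values of the groups did not overlap in 6 of the 9 genes, against 65.6% of all genes tested.

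**Figure D1:**
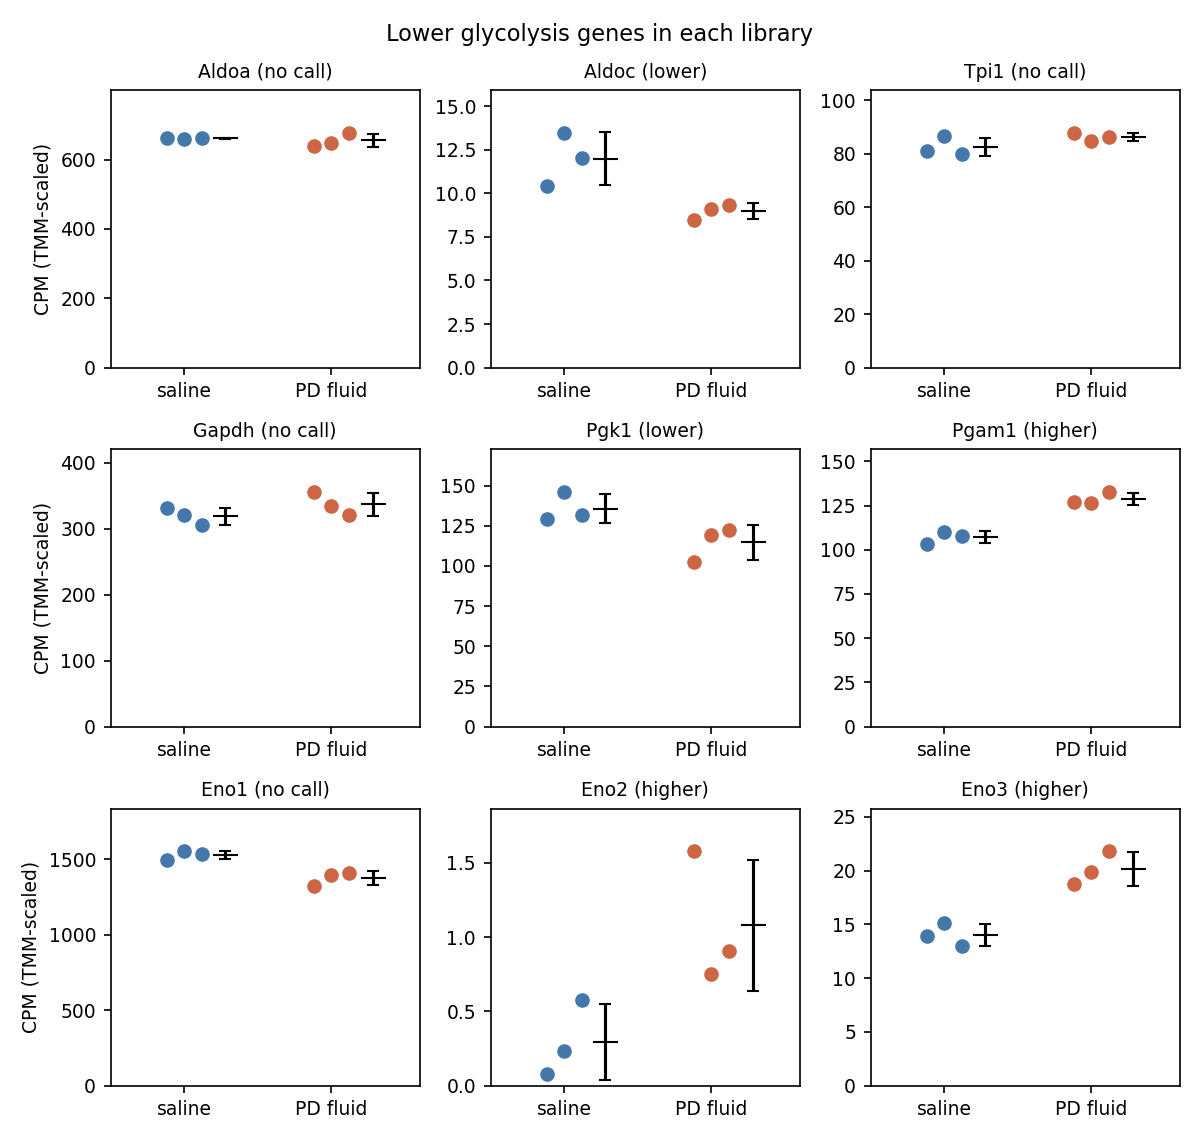
Level of each gene in each library, in CPM after TMM scaling on a linear axis from 0. Points are the 3 saline and 3 PD fluid libraries, bars give the mean and SD, and panel titles give the call at an adjusted p under 0.05: Eno3 rose from 13.0 to 15.1 CPM in saline to 18.8 to 21.8 CPM in PD libraries (on this TMM scale; with endothelial marker scaling it fell), while the Aldoa points of both groups lie between 640 and 677 CPM.

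Aldolase was carried almost wholly by Aldoa, and that gene did not pass the test. Aldoa (ENSMUSG00000030695; chromosome 7 of GRCm38, 126795234 to 126800751, minus strand) was at 663, 660 and 662 CPM in the saline libraries and at 640, 648 and 677 CPM in the PD libraries. The saline values fell inside the range of the PD values. Its log2 fold change came to -0.01 (standard error 0.06, 95% interval -0.14 to 0.12, adjusted p = 0.856 in edgeR's quasi-likelihood F test, adjusted by Benjamini-Hochberg), an interval that in percent runs from -9.54 to 8.40. Another row carries the symbol Aldoa, at 1 to 5 counts per library, and was set aside by the rule.

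Aldoc (ENSMUSG00000017390; chromosome 11, 78322968 to 78327781, plus strand) was called lower. It was at 10.4, 13.5 and 12.01 CPM in the saline libraries and at 8.46, 9.10 and 9.33 CPM in the PD libraries. The groups did not overlap, and the nearest values were the first saline and the third PD library. The log2 fold change came to -0.42 (standard error 0.14, adjusted p = 0.0218 in that edgeR test). This call was lost, with an adjusted p of 0.0774, 0.0745 or 0.0613 in edgeR, when saline 2, PD 1 or PD 2 was left out. The retrogenes Aldoart1 and Aldoart2 had no reads in any library.

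Of the steps with 1 main gene, 2 changed in opposite directions with TMM scaling (both were lower with endothelial marker scaling) and 2 did not pass the test. Tpi1 (ENSMUSG00000023456; chromosome 6, 124810586 to 124814296, minus strand) was at 81.1, 86.6 and 80.1 CPM in saline and at 87.9, 84.7 and 86.2 CPM in PD libraries. The highest saline library lay within the PD range, and the log2 fold change of 0.06 had a 95% interval of -0.08 to 0.21 (adjusted p = 0.441 in that edgeR test). Gapdh (ENSMUSG00000057666; chromosome 6, 125161715 to 125166467, minus strand), often used as a reference gene, was at 332, 320 and 306 CPM in saline and at 356, 334 and 321 CPM in PD libraries. These ranges overlapped as well, with a log2 fold change of 0.08 (95% interval -0.06 to 0.22, adjusted p = 0.319 in that edgeR test). Its testis form, Gapdhs, had 1 read over the 6 libraries and could not be tested.

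Pgk1 (ENSMUSG00000062070; chromosome X, 106187100 to 106203699, plus strand) fell with PD fluid. It was at 129, 146 and 132 CPM in the saline libraries and at 102, 119 and 122 CPM in the PD libraries, with PD 1 lowest. No PD value reached the saline range. Its log2 fold change came to -0.24 (SE 0.08, adjusted p = 0.0204 in that edgeR test), and without PD 1 it was -0.17 (adjusted p = 0.0770 in edgeR). The testis gene Pgk2 had between 0 and 9 counts per library and was not tested.

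Pgam1 (ENSMUSG00000011752; chromosome 19, 41911923 to 41918660, plus strand) rose with TMM scaling and fell with endothelial marker scaling. It was at 103, 110 and 107 CPM in the saline libraries and at 127, 126 and 133 CPM in the PD libraries. The groups were well separated, each spanning less than the gap between them. Its log2 fold change came to 0.27 (standard error 0.06, adjusted p = 0.00328 in that edgeR test), and it remained between 0.25 and 0.29 with each library left out in turn, with an adjusted p of at most 0.0226. The muscle mutase Pgam2 was scarce, with 7 to 22 counts per library, and its log2 fold change of 0.73 had a 95% interval of -0.26 to 1.72 (adjusted p = 0.188 in that edgeR test). Bpgm, the bisphosphoglycerate mutase that feeds a side loop between Pgk1 and Pgam1, fell from 42.0 ± 3.76 to 27.1 ± 0.792 CPM (SD, n = 3 each), a log2 fold change of -0.63 (adjusted p = 7.71e-05 in that edgeR test).

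Among the enolases with TMM scaling, the abundant form was lower by a small amount that was not called, and the scarce Eno2 and Eno3 were higher. With endothelial marker scaling Eno3 was lower too. Eno1 (ENSMUSG00000063524; chromosome 4, 150236721 to 150248879, plus strand) was at 1498, 1556 and 1532 CPM in the saline libraries and at 1326, 1398 and 1407 CPM in the PD libraries. All PD values lay below all saline values, but the log2 fold change of -0.15 (standard error 0.06, 95% interval -0.29 to -0.01) narrowly missed the threshold (adjusted p = 0.0545 in that edgeR test). DESeq2 and limma-voom, run on the same counts, gave adjusted p of 0.0219 and 0.0288, and edgeR gave 0.0467 without PD 3. Upper quartile scaling in edgeR gave 0.0342, and limma on log2(FPKM + 1) gave 0.0259. In edgeR Eno1 was not called when any other library was left out, with adjusted p from 0.0659 to 0.140. Nor did edgeR call it without the filter on low counts (0.0790), with a replicate block (0.0633) or with RLE scaling (0.0501). Eno1b had between 42 and 87 counts per library and a log2 fold change of -0.38 (adjusted p = 0.268 in that edgeR test), which became -0.78 without PD 2 (adjusted p = 0.0339 in edgeR).

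Eno3 (ENSMUSG00000060600; chromosome 11, 70657202 to 70662513, plus strand) rose with TMM scaling and, as Pgam1 did, fell with endothelial marker scaling. In TMM-scaled CPM it was at 13.9, 15.1 and 13.0 CPM in saline and at 18.8, 19.8 and 21.8 CPM in PD libraries. On the log2 scale the rise was 0.52 (SE 0.11, adjusted p = 0.00169 in that edgeR test), and the adjusted p stayed at or under 0.00880 with each library left out. Of 8 striated muscle markers, Myh1, Myh4 and Pvalb had no reads in any library. The list summed to between 16.8 and 19.7 CPM in saline and between 9.12 and 11.1 CPM in PD libraries, with 0 of its 4 tested genes called higher and 1 lower, Mylpf, which made up most of the sum. All 8 pericyte and smooth muscle markers were called higher, as Eno3 was, and summed to between 281 and 299 CPM in saline and between 455 and 503 CPM in PD libraries. The part of either cell type in the Eno3 value was not tested.

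Eno2 (ENSMUSG00000004267; chromosome 6, 124760053 to 124769673, minus strand) had the largest fold change and the fewest reads. It had 2, 5 and 14 counts in the saline libraries and 43, 18 and 20 counts in the PD libraries. That corresponds to 0.296 ± 0.257 CPM in saline and 1.08 ± 0.440 CPM in PD libraries (SD, n = 3 each), with the third saline library closest to the PD range. The log2 fold change was 1.87 with a 95% interval of 0.62 to 3.12 (adjusted p = 0.0141 in that edgeR test). The call was lost without saline 1 (adjusted p = 0.0583) or without PD 1 (adjusted p = 0.0874 in edgeR), and the log2 fold change ran from 1.40 to 2.82 with each library left out. On the log2(FPKM + 1) scale, where the added 1 exceeds the Eno2 values themselves, limma gave a difference of 0.39 (adjusted p = 0.00732). Eno4, which is best known from sperm, had 3 to 7 counts per library and was not tested. Neuron and glia markers moved in the same direction as Eno2: 3 of 7 tested (Tubb3, Snap25 and Stmn2) were called higher and none lower. Among all genes tested, 30.5% were called higher and 27.9% lower. The list of 8 summed to between 13.9 and 16.8 CPM in saline and between 26.3 and 28.4 CPM in PD libraries. Of this, Stmn2 alone averaged 6.92 CPM in saline and 12.7 CPM in PD libraries. The part of neurons and glia in the Eno2 value was not tested.

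**Figure D2:**
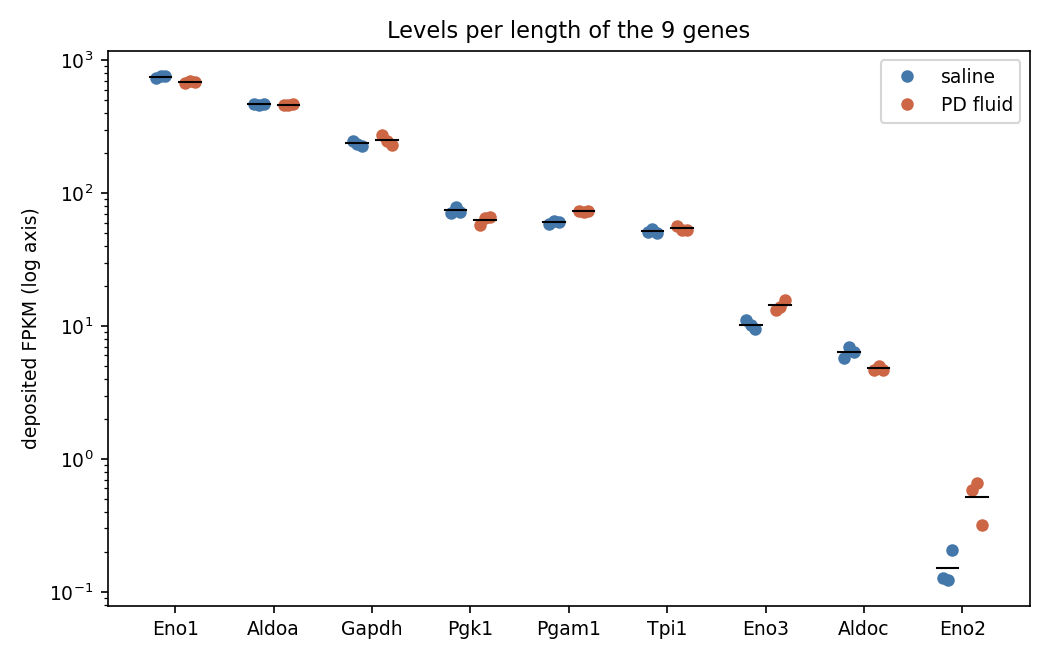
Deposited FPKM of the 9 genes on a log axis, ordered by their mean in saline libraries. Points are single libraries and short lines are group means: Eno1 stands highest (752 in saline, 681 in PD), Eno2 lowest (0.152 and 0.520), and Pgk1 and Pgam1 exchange places between the groups.

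Levels of different genes were compared per length with the FPKM that the authors deposited. In saline libraries the order of mean FPKM was Eno1 (752), Aldoa (463), Gapdh (236), Pgk1 (74.0), Pgam1 (60.04), Tpi1 (51.5), Eno3 (10.3), Aldoc (6.38) and Eno2 (0.152). No neighbours in that order overlapped over the 3 libraries, though the smallest step, from Pgam1 to Tpi1, was 1.17-fold. In PD libraries 7 genes held their place, while Pgam1 (72.7) stood above Pgk1 (62.9), again without overlap. The 9 transcripts of 1 linear run of reactions thus spanned a wide range, with Eno1 at 1.62 times the level of Aldoa and Aldoa at 1.97 times the level of Gapdh in saline libraries. The depth per base behind the Eno2 values is uneven: the transcript length implied by its counts and FPKM ran from 614 to 2796.5 bases between libraries, whereas for Pgam1 it was 1775 bases in each. For Eno2 the counts are therefore the firmer measure.

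Within the enolase step, Eno1 made up 98.2%, 98.4% and 98.5% of the summed FPKM in saline libraries and 97.8%, 97.6% and 97.5% in PD libraries. The share of Eno3 was 1.48%, 1.33% and 1.23% in saline and 1.91%, 1.97% and 2.26% in PD libraries. The groups did not overlap for either share, and p was 0.1 for each in a two-sided exact permutation test, the smallest p that 3 libraries against 3 allow (0.16 adjusted over 8 shares). Aldoc made up 1.36% ± 0.140 of the aldolase FPKM in saline and 1.03% ± 0.0482 in PD libraries (SD, n = 3 each; exact permutation p = 0.1, 0.16 adjusted). The log2 ratio of Eno3 to Eno1 in CPM, which does not depend on how libraries are scaled, was -6.77 ± 0.0979 in saline and -6.10 ± 0.0758 in PD libraries, a difference of 0.68 (SD, n = 3 each; two-sided exact permutation p = 0.1, and 0.1 adjusted over 3 ratios). For Eno2 to Eno1 the difference was 2.38, which ran from 1.66 without saline 1 to 3.08 without saline 3 and was 1.89 from FPKM, and for Aldoc to Aldoa it was -0.40, with the same p for each in the exact permutation test. In each of the 3 ratios the groups did not overlap. Among single genes tested, 65.6% did not overlap either, so such separation does not set these shares or ratios apart.

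Reads that fit several genes could blur these values. Gapdh has 78 other annotated genes with a stretch of at least 150 bases that is at least 95% identical to its main transcript, 76 of them pseudogenes. Of these, 2 are listed in the table, with 158 counts over the 6 libraries beside 47566 for Gapdh. Eno1 has 3 such genes, of which Eno1b is listed, with 400 counts beside 209524 for Eno1. Pgk1 has 4, Tpi1 and Pgam1 have 1 each, and none of these is listed. No such copy was found for Aldoa, Aldoc, Eno2 or Eno3. How the authors' counting treated reads with several matches is not given in the sources used here.

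**Figure D3:**
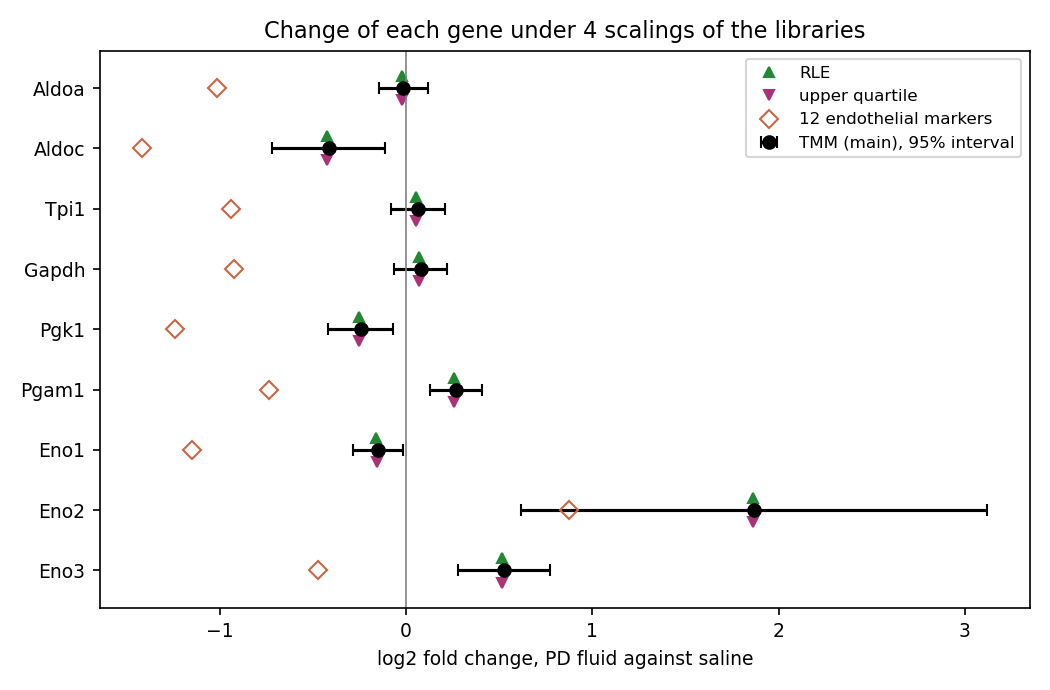
Log2 fold change of each gene, PD fluid against saline, under 4 ways of scaling the libraries. Black points with bars are the TMM values and their 95% intervals, triangles are RLE and upper quartile scaling, and open diamonds are scaling to 12 endothelial markers, where all but Eno2 lie below 0.

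The directions depend on what the libraries are scaled to. With TMM, RLE and upper quartile scaling the values of each gene nearly coincided. Scaled to the 12 endothelial markers, which were themselves higher in PD libraries, the median of all genes tested shifted from 0.02 to -0.98, with 1124 genes called higher and 10156 lower in place of 4272 and 3907. With that scaling 8 of the 9 genes were called lower, and Eno2 was not called (log2 fold change 0.87, adjusted p = 0.159 in edgeR). Relative to the median gene the values were then 1.85 for Eno2, 0.51 for Eno3, 0.25 for Pgam1, -0.17 for Eno1, -0.26 for Pgk1 and -0.44 for Aldoc, the same order as with TMM. Rescaling moves these genes by nearly the same amount, so their order was largely fixed in advance and is no test.

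**Figure D4:**
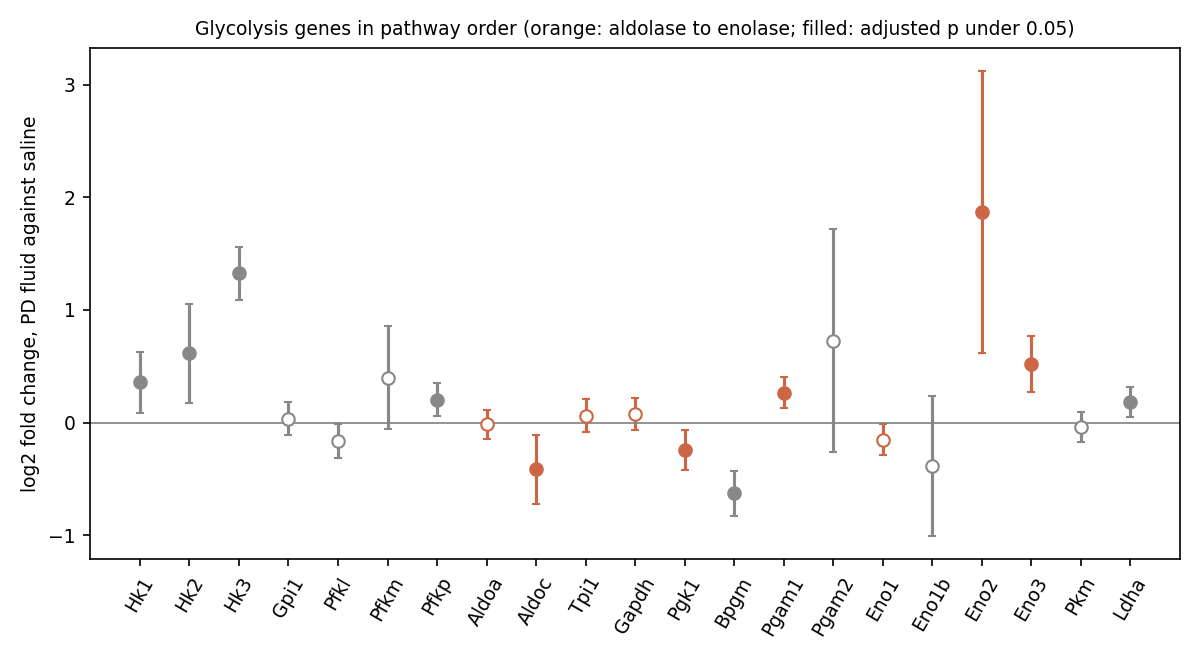
Log2 fold change with 95% interval for tested glycolysis genes in pathway order, from hexokinase to lactate dehydrogenase. Orange marks aldolase to enolase, grey the other genes, and filled points had an adjusted p under 0.05: Hk3 (1.33) and Eno2 (1.87) stand highest among the genes drawn.

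The rest of the pathway was described from fixed lists. Of 11 genes of upper glycolysis and pyruvate kinase, 8 were tested, with a median log2 fold change of 0.28. Of the 8, 4 were called higher and 0 lower, beside 30.5% and 27.9% of all genes tested, whose median was 0.02. Hk3, the hexokinase known from myeloid cells, rose from 17.5 ± 2.27 to 44.0 ± 2.65 CPM (log2 fold change 1.33, adjusted p = 3.54e-07 in that edgeR test). Hk2 rose by 0.62 from 2.98 ± 0.290 CPM (adjusted p = 0.0202) and Hk1 by 0.36 from 84.4 ± 13.0 CPM (adjusted p = 0.0268 in edgeR), both with TMM scaling, while with endothelial marker scaling Hk1 fell and Hk2 was at -0.38 (adjusted p = 0.1205 in edgeR). The Hk1 call was lost without PD 1 (adjusted p = 0.105) or PD 2 (adjusted p = 0.0748), and the Hk2 call without saline 1 (adjusted p = 0.0609), PD 2 (adjusted p = 0.0837) or PD 3 (adjusted p = 0.0508 in edgeR). The call for Hk3 held with each library left out, and 10 of 10 macrophage and monocyte markers were also called higher, their sum running from 2650 to 2796 CPM in saline and from 10995 to 11912 CPM in PD libraries. The part of these cells in the Hk3 value was not tested. Pkm, the pyruvate kinase just below enolase, was at 840 ± 29.1 and 818 ± 13.0 CPM (log2 fold change -0.04, adjusted p = 0.625 in that edgeR test).

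In the PD libraries 12 pancreatic acinar genes summed to between 8065 and 9039 CPM, against 2.42 to 6.18 CPM in saline libraries. With those 12 acinar genes left out of scaling and testing, the counts called among the 9 main genes were again 3 higher and 2 lower. That refit leaves the reads of the 9 genes as they were, so it cannot show what acinar cells add to them. The part of these cells in the values of the 9 genes was not tested.

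Of 10 listed enzymes that branch from the lower pathway, 8 were tested, 2 were called higher and 3 lower. Their median log2 fold change was -0.10. Among all genes tested 30.5% were called higher and 27.9% lower, so calls in both directions do not set these enzymes apart. Glycerol phosphate dehydrogenases draw on the triose made by aldolase. The cytosolic Gpd1 rose by 1.04 on the log2 scale, from 1.41 ± 0.150 to 2.92 ± 0.854 CPM (adjusted p = 0.00790 in that edgeR test), but with endothelial marker scaling the value was 0.05 and was not called (adjusted p = 0.892 in edgeR). Its more abundant relative Gpd1l fell from 107 ± 3.68 to 68.3 ± 5.25 CPM, a log2 fold change of -0.64 (adjusted p = 1.13e-05 in that edgeR test). Acyp1, an acylphosphatase that can hydrolyse the product of Gapdh, fell from 29.5 ± 2.71 to 15.7 ± 2.77 CPM, a log2 fold change of -0.92 (adjusted p = 6.92e-05 in that edgeR test).

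Several enzymes of lower glycolysis are textbook targets of hypoxia-inducible factor (HIF), whose core DNA element is ACGTG. RefSeq promoters of GRCm38.p6, 250 bases before to 50 bases after each start, were found for all 9 symbols, 14 promoters in all. The element, searched on both strands, occurred in 6 of these 14 promoters, 2 of them overlapping Aldoa promoters that share 1 element, and in 19.62% of all 32851 promoters of that length. It lay before the start site in 3 of the 9 symbols, Pgk1, Pgam1 and Aldoa. All 3 are printed. With TMM scaling Pgk1 was called lower, Pgam1 was called higher and Aldoa was not called, while with endothelial marker scaling each was called lower. Capitals mark ACGTG or its reverse complement CACGT on the gene's own strand.
Pgk1 (chrX:106186920-106187003, plus strand): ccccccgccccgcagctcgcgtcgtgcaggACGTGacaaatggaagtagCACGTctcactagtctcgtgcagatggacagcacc
Pgam1 (chr19:41911727-41911791, plus strand): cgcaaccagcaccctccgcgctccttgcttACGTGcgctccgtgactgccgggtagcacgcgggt
Aldoa (chr7:126799346-126799410, minus strand): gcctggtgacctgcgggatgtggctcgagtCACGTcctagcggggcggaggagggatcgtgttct
The Pgk1 elements begin 150 and 131 bases before its start and the Pgam1 element 114 bases before, while the Aldoa element begins 126 or 202 bases before, depending on which of its start sites is used. A match of these letters is a description and not evidence of binding.

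Over all genes tested, 30.5% were called higher and 27.9% lower, with a median log2 fold change of 0.02. Of 20 further HIF target genes, a list that includes Ldha, all were tested. Among these, 9 were called higher and 5 lower, with a median log2 fold change of 0.50. Those with the largest rises were P4ha1, a collagen prolyl hydroxylase subunit (log2 fold change 1.505, adjusted p = 4.21e-09), Ndrg1 (1.31, adjusted p = 3.03e-07), Ddit4, an mTOR inhibitor (1.29, adjusted p = 2.75e-06), P4ha2 (1.28, adjusted p = 3.78e-06) and Adm, the vasodilator adrenomedullin (1.25, adjusted p = 1.31e-06 in that edgeR test). With endothelial marker scaling P4ha2 was at 0.28 (adjusted p = 0.0792) and Adm at 0.25 (adjusted p = 0.0934 in edgeR), neither of them called. Ero1a rose by 0.59, Bhlhe40 by 0.57 and Mxi1 by 0.52, and these 3 fell with endothelial marker scaling. Pdk1, the kinase that holds pyruvate dehydrogenase inactive, fell from 203 ± 11.03 to 99.4 ± 4.21 CPM (log2 fold change -1.03, adjusted p = 4.71e-08 in that edgeR test), and Ankrd37 fell by 0.71 on that scale. Ldha, which reduces pyruvate to lactate, rose by 0.18 from 468 ± 22.7 to 531 ± 8.39 CPM (adjusted p = 0.0236 in that edgeR test), and it too fell with endothelial marker scaling. Its call was lost without saline 3 (adjusted p = 0.0933) or PD 2 (adjusted p = 0.0576 in edgeR). Fibroblast markers were higher as well, with 8 of 8 called and sums of 94.95 to 103 CPM in saline and 853 to 889 CPM in PD libraries. Their part in the prolyl hydroxylase values was not tested.

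The genes whose profile over the 6 libraries lay closest to the 3 called members with the largest change were listed by Euclidean distance between centred log2 CPM values, as a description. For Eno3 they were Gng11 (distance 0.0374), Vegfc (0.0592) and Rcn3 (0.0741). Aldoc lay nearest to Ndufaf3 (0.0661), Ttc37 (0.0664) and Aimp1 (0.0722). Eno2 had no such close neighbour: its nearest were Col9a2 (0.471), Mycbpap (0.622) and Slc12a5 (0.683). With 102 counts in all for Eno2, scatter at low counts adds to these distances, so they do not show a distinctive profile.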

How the data were processed

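The authors deposited 1 table of 22183 genes with raw read counts and FPKM values per library. It also holds their group means, log2 ratio, p-value and FDR, which were not used. The submitters' processing notes name fastp 0.18.0, Bowtie2 2.2.8, HISAT2, StringTie 1.3.1 and RSEM, and the genome build is not given in the sources used here. Positions are those of GENCODE M21 on GRCm38, matched by Ensembl identifier (22128 of 22183). All 6 libraries were grouped by their titles, and 0 sample columns were left unmatched. Total counts ran from 21973426 to 26374292 per library, and by the study's methods each library came from a separate mouse, so p-values measure the spread between mice.

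Counts were filtered with filterByExpr, scaled by TMM and tested with edgeR 4.0.16 (R 4.3.3) quasi-likelihood tests without a covariate, p being adjusted by Benjamini-Hochberg over 14005 genes with a threshold of 0.05. Standard errors and 95% intervals were derived from the F statistic. Intervals cover the spread between these libraries. DESeq2 1.42.0, limma 3.58.1 on counts and on log2(FPKM + 1), other scalings, no filter, a replicate block, leaving out the acinar genes and leaving out each library were alternatives. FPKM served to compare genes per length and for isoenzyme shares. Profiles used log2 CPM with a prior count of 2. All 9 members, the other isoenzymes, and list genes called with an absolute log2 fold change of at least 0.5 were named, with Hk1, Pkm and Ldha. A gene that this rule names is not reported here. Members, lists and rules were chosen with earlier results of these data known. Near-identical copies were found with megablast, and sequences came from RefSeq (GRCm38.p6) and GENCODE M21.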

Additional observations from a re-analysis of the deposited data

How the results depend on the processing

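Among the 9 genes, 3 were higher and 2 lower, and leaving out each library in turn gave between 2 and 3 higher and between 0 and 3 lower. Scaling to 12 endothelial markers gave 0 higher and 8 lower. Under it the rest of the glycolysis genes had 2 higher and 14 lower in place of 7 and 4, the further HIF targets 3 and 12 in place of 9 and 5, and all genes 1124 and 10156. The same scaling turned the log2 fold change of Tpi1 to -0.94, Gapdh to -0.92, Pgam1 to -0.73, Eno3 to -0.47, Hk1 to -0.64, Hk2 to -0.38, Ldha to -0.82, Ero1a to -0.41, Mxi1 to -0.48 and Bhlhe40 to -0.43. A change of sign is listed here where the value was called with TMM or with the alternative, and on that rule no other alternative reversed any of the 31 named genes. Values that were called in neither also crossed 0: Aldoa was at 0.0019 without PD 1 and 0.0015 without PD 2, and Pgam2 at -0.27 with endothelial marker scaling. Shares and ratios of isoenzymes could not reach p under 0.1 by design. The deviations of same-numbered libraries from their group means correlated at 0.10, 0.04 and -0.17, and not every library correlated best with its own number. With 3 libraries per group, such values cannot settle whether the replicate numbers pair the libraries. With the replicate block, the 9 genes again had 3 higher and 2 lower, and 4185 and 3702 of all genes were higher and lower. For Eno2, with 102 counts in all, depth limits the precision.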
